A study of Mus musculus with 16 samples.

Results

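The mt-Co1 mRNA encodes cytochrome c oxidase subunit I, the catalytic core of respiratory complex IV. It is read from the mitochondrial genome as part of a long precursor that is in most places cut at tRNAs between the genes. The tRNA genes nearest to mt-Co1, mt-Ty and mt-Ts1, are encoded on the other strand. LRPPRC is a pentatricopeptide repeat protein of the mitochondrial matrix that works in a complex with SLIRP and is known to maintain mitochondrial mRNAs, their poly(A) tails and their translation. In RNase footprinting, a stretch that is cut less than the bases beside it, because protein covers it or because it is folded, is called a footprint. Described here are all footprints that lay on the plus strand of the mitochondrial genome and whose largest overlap, of at least 1 nt, with a gene of the same strand was with mt-Co1 (ENSMUSG00000064351.1, chrM:5328-6872 in mm10, 1545 nt, annotated as a single protein-coding exon). They numbered 39 of the 302 footprints in both deposited lists, namely 27 of the 178 control-called footprints and 12 of the 124 knockout-called footprints.

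The study asked where RNA in heart mitochondria is protected when LRPPRC is present and where when it is absent. Mitochondria came from 12-week-old male mice on a C57BL/6N background, either Lrpprc loxP/loxP,Cre+ animals, in which Lrpprc is deleted in heart and skeletal muscle, or Lrpprc loxP/loxP controls, which carry the same floxed alleles without Cre. Lysates of each genotype were digested with RNase A (10 U/µl, cutting after C and U), RNase T1 (0.1 U/µl, cutting after G) or RNase If (0.01 U/µl, without sequence preference), or were mock digested, and these 4 libraries were combined into 1 track per genotype. Libraries of Slirp mice were not analysed here.

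A control-called footprint was found on the control track and was shallower on the knockout track, and a knockout-called footprint was found on the knockout track and was deeper there than in controls. Because there was 1 track per genotype, no value below carries a replicate error or a test. Apart from those of medians, the intervals given are exact 95% intervals (Poisson for counts, Clopper-Pearson for shares) and cover the counting of footprints or bases only. Neighbouring bases are not independent, the number of mice behind a track is not given in the sources used here, and the read depth behind each score is unknown. The lists hold no measure of Lrpprc or of the mt-Co1 level in either genotype, so neither was checked here. The paper itself shows the loss of LRPPRC in heart mitochondria by immunoblot. From RNA sequencing of knockout hearts it reports lower stability of the mitochondrial mRNAs other than mt-Nd6. In a whole-heart preparation fewer cells of a type and less RNA per cell cannot be told apart. The part of RNA level in the number of calls and in their scores was not tested.

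The sequences that carry the description are those of footprints of the 2 lists that overlapped. Numbers give the order along the transcript within each list, and all sequences run 5′ to 3′ on the plus strand of mm10, with U written as T. The first set holds 10 of the 13 pairs that shared bases, 1 for each knockout-called footprint that overlapped a control-called one, and capitals mark only the bases shared within the pair as printed. The other 3 pairs, control-called 2 with knockout-called 1 (2 nt), 7 with 4 (3 nt) and 25 with 11 (7 nt), are not marked.
control-called 1 (chrM:5333-5343): CATTAATCGTT
knockout-called 1 (chrM:5323-5357): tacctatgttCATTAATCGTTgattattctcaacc
control-called 2 (chrM:5356-5367): ccaatCACAAAG
knockout-called 2 (chrM:5361-5377): CACAAAGatatcggaac
control-called 6 (chrM:5624-5634): tataaGTTTTT
knockout-called 4 (chrM:5629-5649): GTTTTTgactcctaccaccat
control-called 10 (chrM:5778-5813): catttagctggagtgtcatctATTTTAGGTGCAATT
knockout-called 5 (chrM:5799-5833): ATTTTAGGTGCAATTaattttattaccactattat
control-called 13 (chrM:5977-5999): caactttctTTGATCCCGCTGGA
knockout-called 6 (chrM:5986-6011): TTGATCCCGCTGGAggaggggaccca
control-called 19 (chrM:6364-6391): tcttatttacagttggtggtctaacCGG
knockout-called 8 (chrM:6389-6396): CGGaattg
control-called 20 (chrM:6410-6438): atcccttGACATCGTGCTTcacgatacat
knockout-called 9 (chrM:6417-6428): GACATCGTGCTT
control-called 23 (chrM:6603-6625): TTCcctcaacatttcctgggcct
knockout-called 10 (chrM:6577-6605): tattcgtaggagtaaacataacattcTTC
control-called 24 (chrM:6649-6656): CAGACTAC
knockout-called 11 (chrM:6642-6681): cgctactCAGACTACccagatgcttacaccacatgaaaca
control-called 27 (chrM:6791-6823): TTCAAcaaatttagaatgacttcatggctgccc
knockout-called 12 (chrM:6771-6795): gtaatatcagtatcgtatgcTTCAA

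The second set shows the 3 control-called footprints with the lowest F scores, which were the deepest, and the 1 knockout-called footprint that lay away from every control-called one. Here capitals mark the footprint, and the 3 lower-case bases on either side are the flanks against which its centre was scored.
control-called 7 (chrM:5647-5666): cacCATCATTTCTCCTTCTCCTAgca
control-called 14 (chrM:6122-6130): aaaAGAACCTTTcgg
control-called 26 (chrM:6735-6742): atcTTTATAATttg
knockout-called 3 (chrM:5494-5512): atgTTATCGTAACTGCCCATGCttt

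mt-Co1 was the transcript with the most control-called footprints per length. It carried 17.5 per kb (interval 11.5 to 25.4), and 465 of its bases, or 30.1%, lay inside one, where the background over all 13 mitochondrial mRNAs and rRNAs was 17.5% of bases. The other 10 mRNAs together held 80 such footprints, or 8.16 per kb (6.47 to 10.2), with 14.0% of their bases covered, which puts the density on mt-Co1 at 2.14 times theirs. The order below mt-Co1 was not separated by the counts. mt-Co3 (14.0 per kb) and mt-Co2 (13.2 per kb), which encode the other mitochondrially made subunits of complex IV, and the 16S rRNA mt-Rnr2 (13.9 per kb) came next, all with intervals that overlapped that of mt-Co1. Of the 12 other transcripts, the intervals of 2, mt-Nd5 and mt-Nd4l/4, both for complex I subunits, lay wholly below it. mt-Co1 also ranked first of 13 in the share of bases covered.

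Knockout-called footprints were less dense, and in their number mt-Co1 stood among the other transcripts. There were 7.77 per kb (4.01 to 13.6), the third highest value after mt-Rnr2 (9.48 per kb) and mt-Nd1 (8.36 per kb), against 5.40 per kb (4.05 to 7.07) on the other 10 mRNAs, a ratio of 1.44. None of the intervals of the 12 other transcripts lay apart from that of mt-Co1. In bases covered mt-Co1 ranked first, with 300 nt or 19.4% inside a knockout-called footprint against a background of 11.9%, just above mt-Co3 (17.5%). The lists stood at 2.25 control-called footprints for each knockout-called one on mt-Co1 and at 1.44 over all rows. mt-Co1 held 15.2% (10.2 to 21.3) of the control-called and 9.68% (5.10 to 16.3) of the knockout-called list, and these intervals overlapped.

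Along the transcript, control-called footprints ran from near the start codon to near the 3′ end of the annotated gene and were found in every part. Cutting mt-Co1 into 5 equal parts of 309 nt gave 6, 6, 4, 6 and 5 control-called footprints from 5′ to 3′, covering 24.9%, 35.6%, 24.9%, 38.8% and 26.2% of the bases. Knockout-called footprints numbered 3, 2, 1, 3 and 3, covering 23.9%, 15.5%, 8.41%, 18.8% and 30.4%. Both lists had their fewest footprints in the middle part, and with 1 to 3 knockout-called footprints a part no trend along the transcript can be read from the latter.

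Control-called footprints followed each other closely. The 26 stretches between successive control-called footprints had a median of 23.5 nt and ranged from 7 to 133 nt, and 15 of them were 30 nt or shorter. Between knockout-called footprints the median stretch was 116 nt (3 to 314 nt, 11 stretches), and 6 exceeded 100 nt. The longest run without a knockout-called footprint, at 6012-6325, held 5 control-called ones (14 to 18). In both lists together, 669 bases (43.3%) lay in a footprint and 876 in none. The longest stretches free of both were 6012-6121 (110 nt), 5411-5493 (83 nt) and 6509-6576 (68 nt).

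The ends of the annotated gene differed between the lists. Knockout-called footprint 1 was the only one to cover the start codon: of its 35 bases, 30 lay in mt-Co1 and 5 before it, 4 of those opposite the tRNA gene mt-Ty, which is encoded on the minus strand. No control-called footprint touched the start codon, and control-called footprint 1 began 5 nt downstream of the first base, inside the stretch protected in the knockout. Knockout-called footprints 1 and 2, with 3 nt between them, were the only neighbours of 1 list so close on mt-Co1. At the 3′ end the last control-called footprint stopped 49 nt and the last knockout-called one 77 nt before the end of the annotated gene. The stop codon (6870-6872), which is the end of the gene and overlaps the minus-strand tRNA gene mt-Ts1, thus lay in neither list. Footprints wholly past the stop codon fell outside the rule, so any mRNA bases there were not examined.

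**Figure D1:**
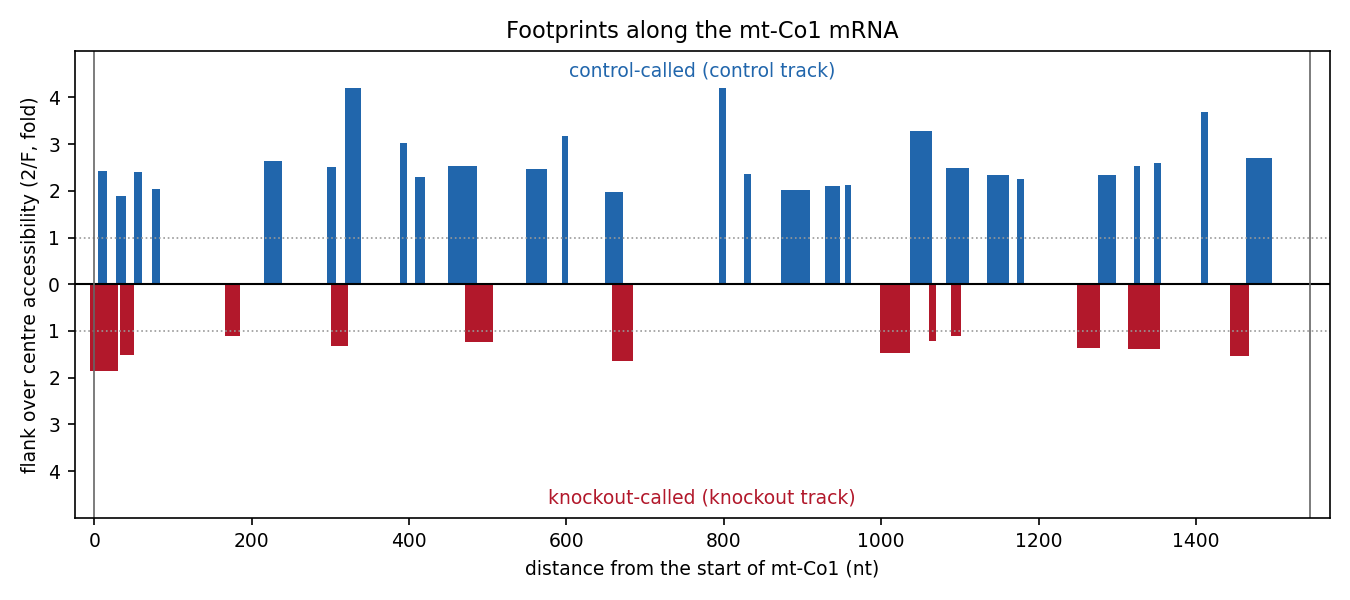
Footprints along mt-Co1, drawn to scale from the start of the gene (0) to its end (grey lines), control-called upward in blue and knockout-called downward in red. Bar height is how many times more accessible the flanks were than the centre (2/F), with dotted lines at 1; control-called bars reach 1.90 to 4.20 and knockout-called bars 1.11 to 1.87, and most red bars stand under or beside a blue one.

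Footprint depth separated the lists. The C score compares, on a log10 scale, the largest read 5′ end coverage among the digested libraries with that of the mock library, so that 0 means no more cutting than in the mock sample, and the F score sums the accessibility of the centre over that of each 3-nt flank, so that 2 means no footprint and a lower value a deeper one. Control-called footprints on mt-Co1 had F scores of 0.476 to 1.05 (median 0.808), and 25 of 27 were below 1. Knockout-called ones had F scores of 1.07 to 1.81 (median 1.46), and 0 of 12 were below 1, so the 2 lists did not overlap in F score on mt-Co1. When 3 counts are taken as the limit of a count of 0, this allows a share of up to 25%. That limit covers counting only and takes the 12 footprints as independent, though they share 1 track. These F scores entered the calls, each from its own track, and are given as a description. The C score adds 1 to both coverages, so low coverage draws C towards 0 and F towards 2. The part of coverage and of RNA level in these scores, and in the centre and flank values below, was not tested. On the other mRNAs and rRNAs 88 of 111 control-called (79.3%) and 10 of 75 knockout-called footprints (13.3%) were below 1, so the same order held there, with 10 knockout-called footprints that reached below 1. The bound between them was narrow: the highest control-called F score (1.05, footprint 2) and the lowest knockout-called one (1.07, footprint 1) belonged to footprints that shared 2 bases.

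The difference lay in both the centre and the flanks. The median C score of the centre was −0.0883 in control-called and 0.0301 in knockout-called footprints, and it was below 0, with less cutting than in the mock sample, in 21 of 27 and in 1 of 12. The accessibility of the flanks, computed from both scores as the log10 of their harmonic mean, had a median of 0.292 in control-called footprints (0.0330 to 0.660) and of 0.161 in knockout-called ones (0.0439 to 0.334). The flanks were therefore a median of 2.47 times as accessible as the centre in control-called footprints and 1.37 times in knockout-called ones. All 12 knockout-called centres lay within 0.1 of a C score of 0 and 10 within 0.05, against 14 and 7 of the 27 control-called centres. On the other mRNAs the medians were −0.0640 and 0.0299 for the centre and 0.302 and 0.196 for the flanks. On the other mRNAs and rRNAs the C score was below 0 in 67 of 111 control-called (60.4%) and 13 of 75 knockout-called footprints (17.3%), against 77.8% and 8.33% on mt-Co1, and it lay within 0.05 of 0 in 39 (35.1%) and 38 (50.7%), against 25.9% and 83.3%. Whether mt-Co1 differed from them in these shares was not tested. Control-called footprints had to have a centre that was less accessible in control than in knockout mitochondria, which bears on the sign of their C scores; how that requirement was applied to the knockout-called list is not stated in the methods.

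**Figure D2:**
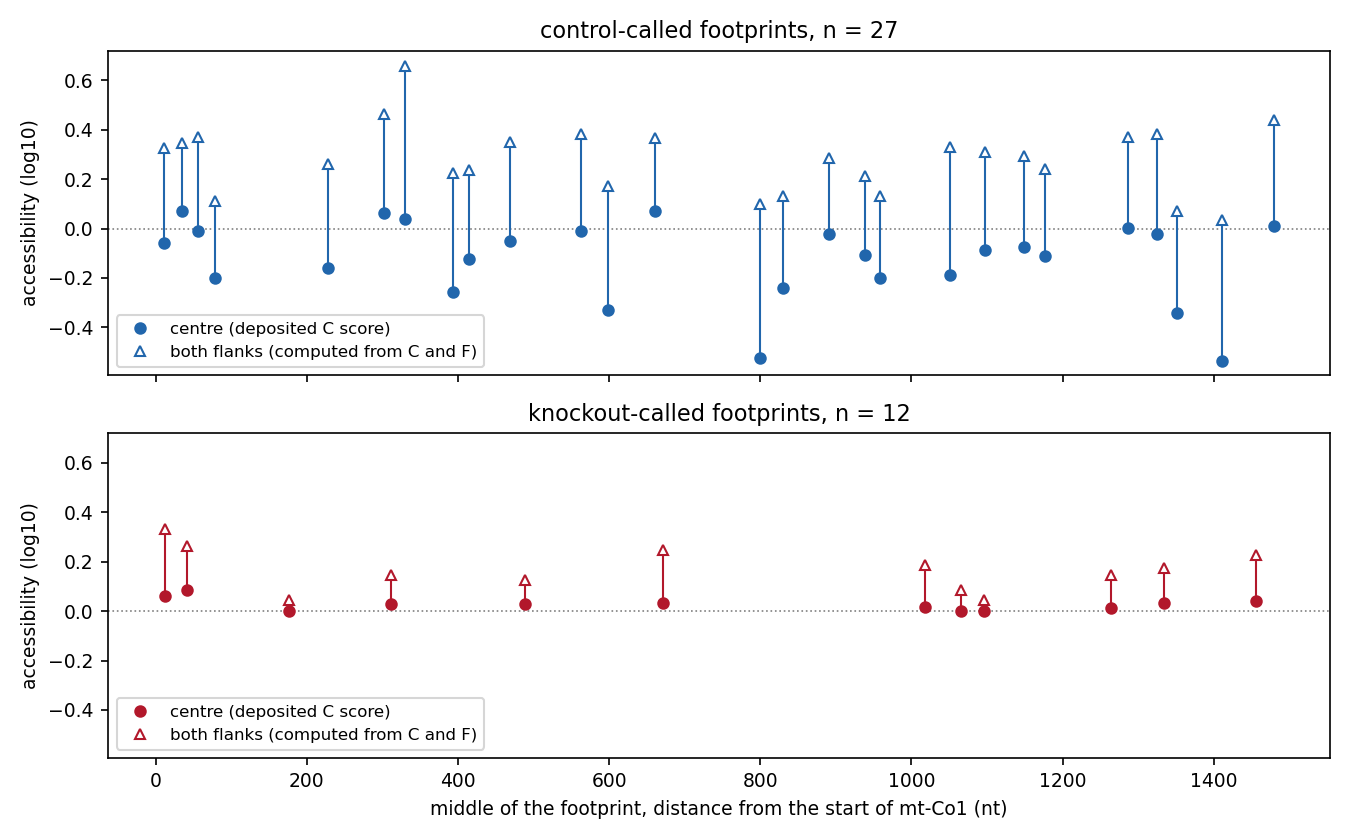
Accessibility on a log10 scale of the centre (filled circle, deposited C score) and of both flanks (open triangle, harmonic mean computed from C and F) of each footprint, by the position of its middle along mt-Co1, for 27 control-called (top) and 12 knockout-called (bottom) footprints. Blue centres fall as low as −0.534 while red centres stay between −0.000157 and 0.0865, and the flanks of control-called footprint 7 are the highest at 0.660.

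Single footprints reached a low F score in different ways. Control-called footprint 14, codons 265 to 268, had the lowest F score of all 27 (0.476) through its centre: its C score was −0.523 while its flanks stood at 0.100. Footprint 26 in codons 470 to 472, made of A and T alone, was alike, with an F score of 0.542, the lowest C score (−0.534) and the least accessible flanks (0.0330). Footprint 7 in codons 107 to 113, a C- and T-rich stretch without a G, reached an F score of 0.477 from the other side, with a C score of 0.0374 and the most accessible flanks of the list (0.660). The third lowest C score was that of footprint 25 (−0.343, F score 0.770). At the other end, footprints 2, 13 and 16 had the highest F scores of 1.05, 1.02 and 0.988, and the C scores above the 90th percentile of the list were those of 13 (0.0730), 2 (0.0692) and 6 (0.0650). Footprints 2, 6 and 13, whose centres were the most accessible in controls, each shared bases with a knockout-called footprint, as did 12 of all 27 (44.4%). Whether scores and overlap were linked was not tested.

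The deepest knockout-called footprint was the one over the start codon. Footprint 1 stood first (F score 1.07), followed by 6 (1.22) and 12 (1.30). Footprints 1 and 2 also had the highest C scores, 0.0629 and 0.0865, the only ones above the 90th percentile of the list. The shallowest were 9 (F score 1.81), 3 (1.81) and 8 (1.64), which were also the 3 with the lowest C scores. The C score was exactly 0 in footprints 3 and 9 and −0.000157 in footprint 8, and their flanks stood at only 0.0440, 0.0439 and 0.0861. A C score of exactly 0 is what the formula gives when treated and mock coverage are equal, including where no read end fell; it occurred in 5 knockout-called and 1 control-called footprint over both lists, and since the lists give no coverage its origin was not tested. Over the 12 footprints, which share 1 track, the rank correlation of C and F score was −0.816 as a description. The F score is computed from the C score of the centre and of the flanks, so the 2 scores are not independent. The part of this and of coverage in the correlation was not tested. Among these 12, footprints with more accessible centres tended to be deeper relative to their flanks, but not in strict order. Footprint 2, with the highest C score, had an F score of 1.33 and was shallower than 1, 6 and 12. Over the 27 control-called footprints the same correlation had the opposite sign, 0.358.

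Control-called footprints had the lower median length, mainly through their many footprints of 8 and 9 nt. The median length was 12 nt in control-called (8 to 37 nt) and 25.5 nt in knockout-called footprints (8 to 40 nt), and 15 of 27 against 2 of 12 were 12 nt or shorter. The 95% intervals of these medians, taken from the ranked lengths, were 9 to 23 nt and 17 to 35 nt and overlapped. They treat the footprints of 1 track as independent and are given as a description. With only footprints of at least 10 nt the medians were 23 and 26 nt. On the other mRNAs the medians lay closer, at 14.5 and 18 nt, and over the whole lists they stood in the opposite order, at 16 and 14 nt. The longest control-called footprints were 16 (37 nt, codons 291 to 303), 10 (36 nt) and 27 (33 nt, codons 488 to 499). The longest knockout-called ones were 11 (40 nt, codons 439 to 452), 7 (38 nt, codons 333 to 346), and 1 and 5 (35 nt each).

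Short control-called footprints had the least accessible centres. The 15 of up to 12 nt had a median C score of −0.199 (−0.534 to 0.0692) and flanks at 0.227, and the 12 longer ones a median C score of −0.0364 (−0.186 to 0.0730) and flanks at 0.341. Their median F scores were nearly the same, 0.824 and 0.804, and whether the classes differed in depth relative to the flanks was not tested. Over the 27 footprints, length and F score had a rank correlation of 0.156, as a description. The rank correlation of length with C score was 0.542 over the 27 footprints of 1 track, as a description. A C score averages over the bases of a footprint, so that single low bases weigh more in a short one; the part of this in the relation was not tested.

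**Figure D3:**
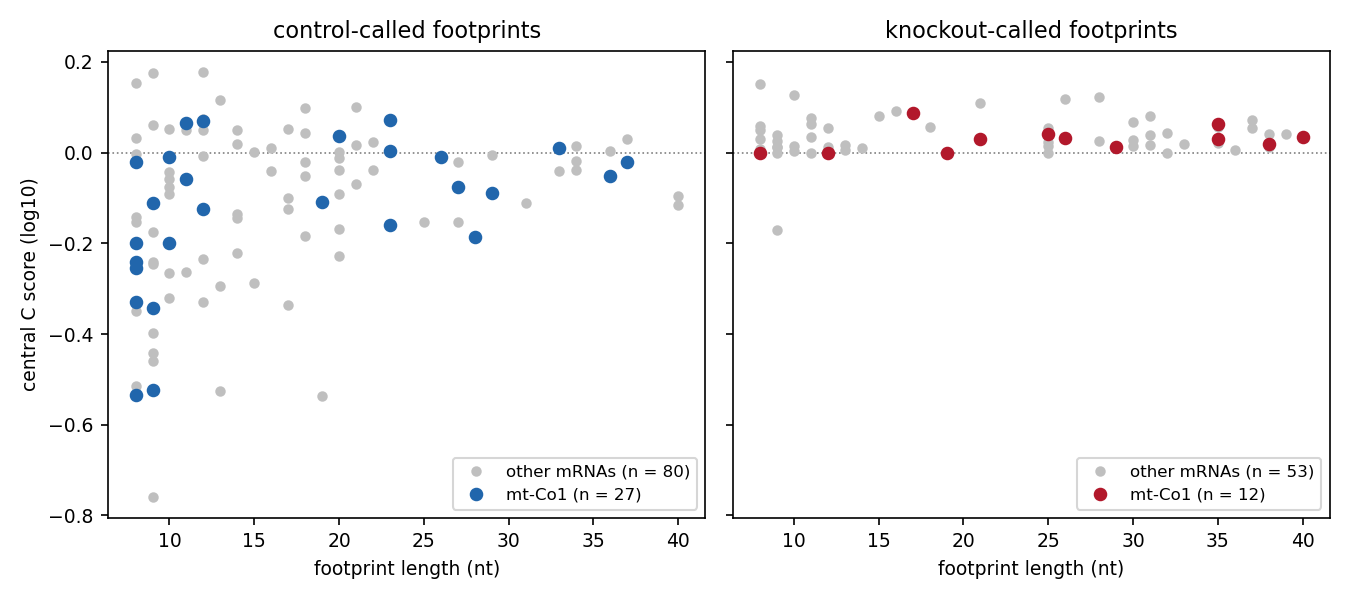
Central C score (log10) against footprint length in nt for control-called (left) and knockout-called (right) footprints, with mt-Co1 in colour and the other mRNAs in grey. The lowest control-called C scores on mt-Co1 (−0.534 and −0.523) are those of footprints of 8 and 9 nt, and the 12 knockout-called C scores on mt-Co1 lie between −0.000157 and 0.0865, inside the range of −0.171 to 0.151 on the other mRNAs.

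Most knockout-called footprints shared some bases with a control-called one, but their bases lay inside control-called footprints about as often as any base of mt-Co1. Bases inside both lists numbered 96, which is 32% of the knockout-called bases where control-called footprints covered 30.1% of the transcript, and 20.6% of the control-called bases where knockout-called footprints covered 19.4%. Of the 12 knockout-called footprints, 10 shared at least 1 base with a control-called one and 11 (91.7%, 61.5 to 99.8) overlapped one or lay within 3 nt of it, against 37 of 75 (49.3%, 37.6 to 61.1) on the other mRNAs and rRNAs. These intervals did not overlap, but footprints on mt-Co1 also had more room to meet: control-called footprints covered 30.1% of its bases against 15.9% of the other transcripts, and its knockout-called footprints had a median of 25.5 nt against 13 nt there. The part of that in the difference was not tested. Seen from the other list, 13 of 27 control-called footprints (48.1%, 28.7 to 68.1) had a knockout-called one within 3 nt, against 43 of 111 (38.7%, 29.6 to 48.5), with intervals that overlapped. Both lists were called on the same pair of tracks, each as a change against the other genotype, so their positions are not independent.

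Overlaps in part were more frequent than footprints lying one inside the other. There were 15 pairs on mt-Co1, of which 13 shared bases and 2 adjoined with 0 bases between. In 3 pairs 1 footprint lay inside the other: control-called 1 inside knockout-called 1, control-called 24 inside knockout-called 11, and knockout-called 9 inside control-called 20. The other 10 overlapped in part, by 2 to 15 nt, the knockout-called footprint lying towards the 5′ end in 5 and towards the 3′ end in 5, so there was no common direction of the shift. The most shared bases were those of control-called 10 with knockout-called 5 (15 nt) and of 13 with 6 (14 nt), and the shared part of the latter, in capitals in the first set of sequences, ran to the last base of control-called footprint 13, from where protection in the knockout went on for 12 nt.

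Several knockout-called footprints filled the space between neighbouring control-called ones. Knockout-called footprint 2 (5361-5377) took in the whole 10 nt between control-called 2 and 3 and stopped at the base before 3. Footprint 4 spanned the 12 nt between control-called 6 and 7 and ended 3 nt into 7, the footprint whose flanks were the most accessible in controls. Footprint 1 covered the 12 nt between control-called 1 and 2, and footprint 11 the 18 nt between 24 and 25. These 4 of 12 knockout-called footprints (33.3%, 9.92 to 65.1) touched 2 control-called ones, against 9 of 75 (12%, 5.64 to 21.6) on the other mRNAs and rRNAs, and the intervals overlapped. Counted by stretches between control-called footprints, 4 of 26 (15.4%) were filled on mt-Co1, against 9 of 99 (9.09%) on the other mRNAs and rRNAs. Knockout-called footprints were also longer on mt-Co1 (median 25.5 nt against 13 nt), and the part of that was not tested. At 6326-6396 the reverse was seen: knockout-called 7 and 8 lay on either side of control-called 19 (F score 0.609, C score −0.186), the one ending at the base before it and the other sharing its last 3 bases.

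Since the lists did not overlap in F score on mt-Co1, the knockout-called partner had the higher F score in every pair. In control-called 10 and knockout-called 5 it was 0.791 and 1.61, with C scores of −0.0523 and 0.0306. In control-called 25 and knockout-called 11 it was 0.770 and 1.44, with C scores of −0.343 and 0.0336. The nearest values were those of control-called 2 and knockout-called 1, with F scores of 1.05 and 1.07 and C scores of 0.0692 and 0.0629. Since the partners differ in extent and flanks, these values stand side by side and are no measure of change at a base. The 14 of 27 control-called footprints without a partner included 2 of the 3 deepest, 14 and 26. These lay 110 and 28 nt from the nearest knockout-called footprint, and the farthest of all was footprint 15 at 142 nt. A link of depth with pairing was not tested.

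The base composition of footprints was close to that of the whole transcript. Adenine made up 29.5% of mt-Co1, 27.1% (23.1 to 31.4) of the bases in control-called and 28.3% (23.3 to 33.8) of those in knockout-called footprints, and 30.8% of those in neither. Thymine, uracil in the RNA, made up 33.8% (29.5 to 38.3) and 32.3% (27.1 to 37.9) against 30.6% of the whole and 28.7% (25.7 to 31.8) of the bases in neither, which lay below the control-called interval. All intervals for A, C, G and T inside footprints contained the value of the whole transcript. Of the 8 intervals for the flanks, where cutting is scored, 2 did not contain it: the flanks were 31.5% C (24.4 to 39.2) beside control-called footprints against 23.8% in mt-Co1, and 6.06% G (1.68 to 14.8, 4 of 66 bases) beside knockout-called ones against 16.1%. RNase A cuts after C and U and RNase T1 after G, so base composition enters the C score itself; its part in where footprints were called was not tested.

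The edges showed no reading frame. Control-called footprints began at codon positions 1, 2 and 3 in 9 cases each, and the 11 knockout-called footprints that began inside the gene did so in 5, 4 and 2 cases. Their lengths were a multiple of 3 nt in 8 of 27 and 2 of 11. At the edges of the 27 control-called footprints, A, C, G and T stood 11, 9, 1 and 6 times just before, 7, 10, 2 and 8 times at the first base, 5, 4, 5 and 13 times at the last base and 5, 8, 7 and 7 times just after. For the 12 knockout-called ones the counts were 5, 1, 1 and 5 just before, 2, 3, 3 and 4 at the first base, 3, 4, 1 and 4 at the last and 2, 7, 0 and 3 just after. Over mt-Co1 the shares were 29.5%, 23.8%, 16.1% and 30.6%. The edges are few, no interval was computed for these counts, and a preference for a base was not tested.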

How the data were processed

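The authors pooled technical replicates, trimmed reads with cutadapt 1.10, aligned them to mm10 and scored the coverage of read 5′ ends. The deposited lists give the position, strand, length, C score and F score of stretches of 8 to 40 nt whose F score changed between genotypes beyond a shuffled null. A further column holds the authors' log2 fold change of the F score and was not used.

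Footprints were assigned to genes of GENCODE vM21 by largest overlap on the same strand, with mt-Atp8/6 and mt-Nd4l/4 as 1 transcript each, and bases were read from the RefSeq mitochondrial sequence of the same build. Flank accessibility was C minus log10 of F/2. Named were the first and last footprint of each list, the 3 lowest and 3 highest in F score, the 3 longest, the 3 lowest in C score, those above the 90th percentile of C score, pairs within 3 nt and the longest free stretches; footprint 15 was named after its value was seen. Members, lists and this rule were chosen with earlier results of these data known. Computation ran in Python 3.11.15 with SciPy 1.17.1 and NumPy 2.4.6, plots were drawn with Matplotlib 3.10.9, and scripts were tested on simulated footprints. Alternatives were either strand, whole footprints inside the gene, merging within 3 nt, at least 10 nt, F score below 1, midpoint distances and flanks as the base reference.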

Additional observations from a re-analysis of the deposited data

How the results depend on the processing

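Of 68 values recomputed under the alternatives, 64 stayed within the interval of the main value or, for counts, within 1.5 times of it, and 4 moved. With footprints of at least 10 nt, the control-called ones covered 25.2% of mt-Co1 in place of 30.1%, since the 9 of 8 or 9 nt were left out, and the median length of control-called footprints was 23 nt in place of 12 nt. With F scores below 1, 0 knockout-called footprints remained, so their share of mt-Co1 and their density over the other mRNAs were both 0, and their median length and scores and the distance to them could not be computed. The ratio of control-called density on mt-Co1 over the other mRNAs ran from 1.80, on either strand, to 2.48, with F scores below 1, and that of knockout-called density otherwise from 1.19 to 1.70. The median distance from a control-called to the nearest knockout-called footprint was 23 nt, 36.5 nt between midpoints, and 0 nt both on either strand and with at least 10 nt. With 1 track per genotype no replicate could be left out and no paired analysis was possible. The lists hold no coverage, so neither a shallow stretch nor a stretch without reads can be told from one that was not cut.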

Other observations

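Opposite mt-Co1, on the minus strand, lay 3 footprints that belong to no minus-strand gene: 1 control-called at 6571-6583 (F score 0.879, C score 0.0119) and 2 knockout-called, at 5966-5974 (F score 1.79) and 6116-6123 (F score 1.74). The latter ended 2 bases into control-called footprint 14 of the plus strand.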
